A study of Mus musculus with 4 samples.

Results

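The genes of prostaglandin synthesis and reception were followed in differentiated 3T3-F442A adipocytes, fat cells grown from a mouse preadipocyte line, that carried a short hairpin RNA against Trpv4 or a control hairpin. The genes taken were Ptgs1, Ptgs2, Ptges, Ptgis, Ptgds, Ptger4, Ptgfr and Pla2g4a, and every probe set annotated to exactly 1 of them was used. This gave 13 of the 22626 probe sets on the array, for 7 of the 8 genes, and Ptgs1 is not analysed here. A probe set is a group of short array probes that together read 1 transcript or, for some probe sets, several.

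The 4 arrays were 2 labelled shTRPV4 (the Trpv4 hairpin) and 2 labelled shGFP (the control hairpin). Per the labels' protocols, cells of both groups were infected overnight as preadipocytes with an shRNA retrovirus and kept as stable populations after 2 days in puromycin (2 ug/ml). At confluence they were differentiated for 8 days in medium with serum and insulin (850 nM), and rosiglitazone, which activates the fat cell regulator PPAR gamma, was present for the first 2 days. Each group carried a retrovirus and had been through puromycin, insulin and rosiglitazone, so no array reads untreated or undifferentiated cells. The labels do not say whether replicates were separate infections or cultures, so the p-values reflect the variation among these arrays alone, and it may be technical.

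Prostaglandins are short-range lipid signals. Phospholipase A2 enzymes free arachidonic acid from membranes, cyclooxygenases (Ptgs genes) oxidise it to prostaglandin H, and terminal synthases turn that into prostaglandin E, prostacyclin, prostaglandin D, prostaglandin F or thromboxane, each of which acts on its own G protein-coupled receptors. In the fat cell lineage, prostacyclin is known as a promoter and prostaglandin F as an inhibitor of preadipocyte differentiation, and prostaglandin E is known to restrain lipolysis in mature fat cells.

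Most of the measured genes on this list were lower in the arrays labelled shTRPV4. The list was chosen with earlier results of these data known, so its counts are a description and not a test of the route. Of the 13 probe sets, 9 fell and 0 rose (limma, p under 0.05 after Benjamini-Hochberg adjustment across the whole array). By the same rule 5.36% of all probe sets were lower, 4.54% were higher and 9.9% differed in either direction. At an unadjusted limma p under 0.05, 10 of the 13 were lower and 0 higher, against 3236 lower and 3692 higher of all 22626 probe sets. The 9 cover 6 of the 7 measured genes: the phospholipase Pla2g4a, the cyclooxygenase Ptgs2, the synthases Ptges and Ptgis, and the receptors Ptger4 and Ptgfr. Ptgds had no probe set past the threshold. The median log2 difference, shTRPV4 minus shGFP, was -0.52 over the 13 probe sets and 0.02 over all probe sets. In 10 of the 13 both arrays labelled shTRPV4 read below both arrays labelled shGFP, and in 0 above both. Over all probe sets these shares were 30.3% and 26.2%. With any 1 of the 4 arrays left out, the median difference of the 13 ran from -0.59 to -0.53, with 1 group then a single array. With an offset of 1 in place of 16 before the logarithm, 3 of the 13 passed, all lower. Over all probe sets, 426 fell and 180 rose with that offset.

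**Figure D1:**
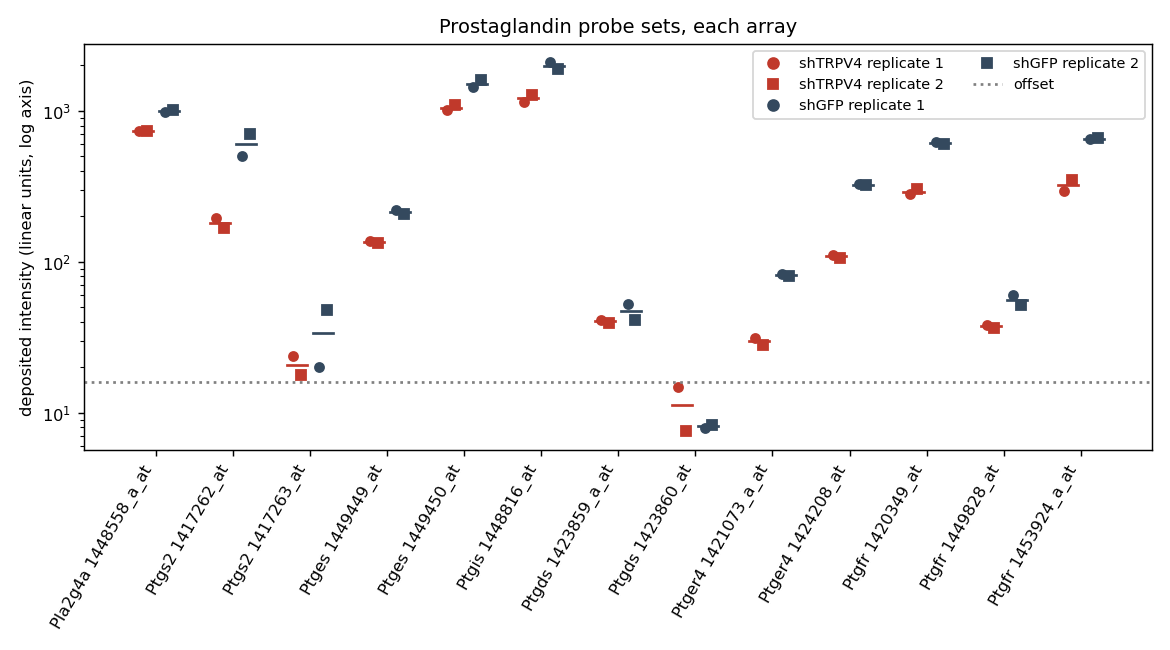
Deposited intensity (linear units on a log axis) of the 13 probe sets on each array, shTRPV4 in red and shGFP in dark grey, with circles for replicate 1, squares for replicate 2 and a bar at each group mean. The groups overlap only for Ptgs2 1417263_at and both Ptgds probe sets, all near the dotted line at the offset of 16 or within a few times it.

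The values are deposited intensities, and differences are between quantile normalized values of log2(intensity + 16). On that scale a dim probe set shows less than its true change. The 4 arrays had medians from 129.4 to 144.0. The median absolute log2 difference over all probe sets was 0.10 between the arrays labelled shTRPV4 and 0.12 between those labelled shGFP, against 0.20 to 0.22 across the groups. Across all probe sets 1027 rose and 1213 fell, a split that scaling moves: 600 rose and 1161 fell with the values as deposited, and 1662 rose and 1141 fell with median centring. The targeted transcript could not be used to check the labels. Trpv4, a calcium-permeable cation channel, read 80.1 and 79.5 in the arrays labelled shTRPV4, against 43.7 and 93.8 in those labelled shGFP (log2 difference 0.32, 95% interval -0.55 to 1.19, limma adjusted p = 0.55), and -0.094 without shGFP replicate 1. The groups are therefore named by their labels.

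The first step of the route is the release of arachidonic acid, and Pla2g4a encodes the calcium-dependent cytosolic phospholipase A2 that does so in many cells. On its probe set 1448558_a_at the values were 735 and 737 in the arrays labelled shTRPV4, against 979 and 1010.4 in those labelled shGFP. The groups did not overlap, and the arrays labelled shTRPV4 stood at 74.0% of the shGFP mean. Pla2g4a fell by 0.40 on the log2 scale (SE 0.06, 95% interval -0.57 to -0.22, limma adjusted p = 0.0449), the smallest difference among the 9 that passed. The call was lost with the values as deposited, with median centring and with an offset of 1.

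Ptgs2, the inducible cyclooxygenase, had the largest difference of the 13. On 1417262_at the values were 195 and 168 in the arrays labelled shTRPV4, against 505 and 705 in those labelled shGFP. The arrays labelled shGFP differed more from each other than those labelled shTRPV4, but the lower of them was still far above both. The means were 182 ± 19.2 in shTRPV4 and 605 ± 142 in shGFP (SD, n = 2 each), or 30.0% of the shGFP mean. The log2 difference was -1.58 (SE 0.18, 95% interval -2.09 to -1.06, limma adjusted p = 0.0283), a 2.98-fold fall on that scale. With an offset of 1 it was -1.65 with an adjusted p of 0.0604.

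The other Ptgs2 probe set, 1417263_at, was designed from the same transcript record and read close to the offset. It had 23.9 and 17.8 in the arrays labelled shTRPV4, against 20.2 and 47.6 in those labelled shGFP. Only shGFP replicate 2 stood apart, and the groups overlapped. The difference of -0.35 did not pass (95% interval -1.20 to 0.50, limma adjusted p = 0.50), and its interval is wide enough to hold no difference or a fall of over 1 on the log2 scale.

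Ptges encodes the inducible microsomal prostaglandin E synthase, and both of its probe sets fell to a similar extent. The brighter, 1449450_at, read 1007 and 1089 in the arrays labelled shTRPV4, against 1431 and 1604 in those labelled shGFP. The dimmer, 1449449_at, read 137 and 133 in the arrays labelled shTRPV4, against 219 and 207 in those labelled shGFP. Neither overlapped between groups, and the shTRPV4 means were 69.0% and 63.3% of the shGFP means. The log2 differences were -0.50 (SE 0.07, limma adjusted p = 0.0400) and -0.52 (SE 0.08, limma adjusted p = 0.0453). Both calls were lost with an offset of 1, and that of 1449450_at also with the values as deposited.

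Ptgis, the prostacyclin synthase, had a single probe set, 1448816_at, which read 1152 and 1267 in the arrays labelled shTRPV4, against 2095 and 1900.1 in those labelled shGFP. The groups were well apart, with means of 1209 ± 81.1 in shTRPV4 and 1997 ± 138 in shGFP (SD, n = 2 each). The log2 difference was -0.68 (SE 0.10, 95% interval -0.96 to -0.40, limma adjusted p = 0.0385), a call lost with an offset of 1.

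Ptgds, the lipocalin-type prostaglandin D synthase, read low on both of its probe sets and did not pass on either. On 1423859_a_at it read 41.3 and 39.5 in the arrays labelled shTRPV4, against 52.9 and 41.2 in those labelled shGFP (log2 difference -0.10, 95% interval -0.43 to 0.23, limma adjusted p = 0.63). On 1423860_at it read 14.9 and 7.51 in the arrays labelled shTRPV4, against 7.98 and 8.26 in those labelled shGFP, all below the offset of 16 (log2 difference 0.17, 95% interval -0.27 to 0.60, limma adjusted p = 0.53). The 2 differences had opposite signs, and the groups overlapped on both.

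Among the receptors, Ptger4 was lower on both of its probe sets with little spread within groups. Ptger4 encodes the EP4 receptor for prostaglandin E, which couples to the stimulatory G protein and raises cyclic AMP. On 1424208_at it read 111 and 106 in the arrays labelled shTRPV4, against 327 and 323 in those labelled shGFP. On 1421073_a_at it read 31.5 and 28.0 in the arrays labelled shTRPV4, against 82.85 and 80.9 in those labelled shGFP. The arrays within a group differed by a few units and the groups by far more, with shTRPV4 means at 33.4% and 36.3% of the shGFP means. The log2 differences were -1.38 (SE 0.08, limma adjusted p = 0.0155) and -1.04 (SE 0.07, limma adjusted p = 0.0171). The size on the dimmer probe set depends on the offset, and was -1.36 with an offset of 1 and -0.61 with 64. Both calls held under the scalings, offsets, filters and trend tried that kept the probe set.

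Ptgfr encodes the receptor for prostaglandin F, which signals through calcium release. On 1420349_at it read 279.7 and 303 in the arrays labelled shTRPV4, against 626 and 607 in those labelled shGFP. On 1453924_a_at it read 295 and 350.04 in the arrays labelled shTRPV4, against 654 and 658 in those labelled shGFP. The groups were far apart on both, and the shTRPV4 means stood at 47.2% and 49.2% of the shGFP means. The log2 differences were -0.99 (SE 0.08, limma adjusted p = 0.0187) and -0.94 (SE 0.10, limma adjusted p = 0.0252), the second with an adjusted p of 0.0553 with an offset of 1. The third probe set, 1449828_at, was much dimmer, at 38.4 and 36.4 in the arrays labelled shTRPV4, against 60.3 and 51.6 in those labelled shGFP. Its groups did not overlap either, but the difference of -0.38 did not pass (95% interval -0.63 to -0.12, limma adjusted p = 0.0859). Once the probe sets of lowest level, up to the 25th percentile, were left out of the fit, the limma adjusted p was 0.0445.

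**Figure D2:**
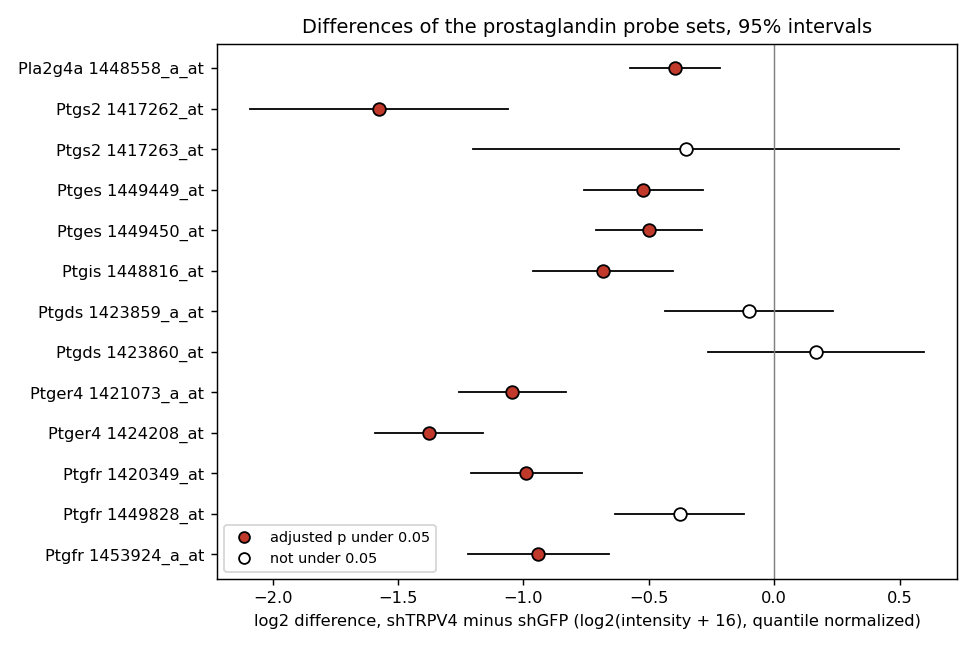
Log2 difference (shTRPV4 minus shGFP, horizontal axis) of each of the 13 probe sets with its 95% interval, filled where the limma adjusted p was under 0.05. The 9 filled points lie between -1.58 and -0.40, and the 2 Ptgds points lie nearest to 0.

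Among the probe sets that passed, the size of the difference varied along the route. The cyclooxygenase probe set 1417262_at and the receptor probe sets that passed differed by between -1.58 and -0.94. The phospholipase and terminal synthase probe sets that passed differed by between -0.68 and -0.40. Of those that did not pass, Ptgs2 1417263_at differed by -0.35, Ptgfr 1449828_at by -0.38 and the Ptgds probe sets by -0.10 and 0.17. Ptgir, a receptor gene outside this list that passed, differed by -0.57. Whether the steps of the route differ from each other was not tested. By mean level, 8 of the 13 were in the brighter 50% of the array, and these 8 all fell. Of the other 5, only Ptger4 1421073_a_at passed, so the 4 probe sets that did not pass are all dim. When all probe sets were put in 20 bins of equal size by level, 5 of the 13 had a difference under the 5th percentile of their bin: Ptgs2 1417262_at, both Ptger4 probe sets, and Ptgfr 1420349_at and 1453924_a_at.

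**Figure D3:**
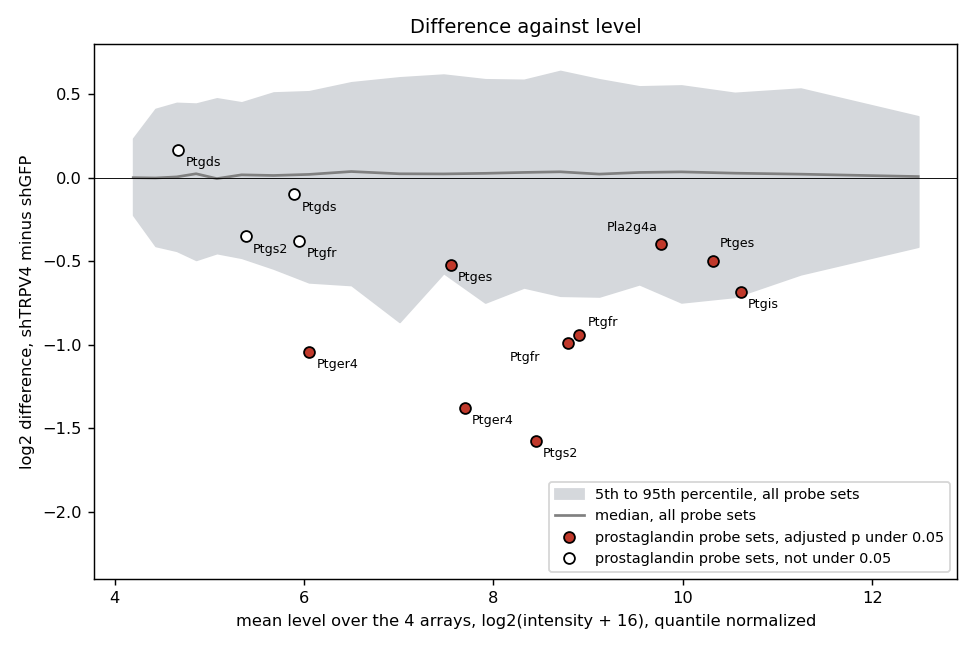
Log2 difference (vertical axis) against mean level over the 4 arrays on the normalized log2(intensity + 16) scale (horizontal axis) for the 13 probe sets, over the median and the 5th to 95th percentile band of all probe sets in 20 level bins. Ptgs2 1417262_at, both Ptger4 and the brighter 2 Ptgfr probe sets lie below the band, and Ptgis, Ptges and Pla2g4a lie inside it.

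The sequence just before the start of 4 of the genes that fell is shown as a description. Pla2g4a also fell, but its entries, which hold none of the 4 motifs below, are not printed. Each is the 250 bases before a start given by RefSeq in build GRCm38.p6, from 5′ to 3′ on the gene's strand. For Ptges that start lies inside the annotated gene (chr2:30889471-30931020), and for Ptgs2, Ptger4 and Ptgfr it is the outer end of the gene. Capitals mark letters of 4 motifs searched on both strands: the palindrome TTGCGCAA bound by C/EBP factors, the cyclic AMP response element half-site ACGTCA, the E-box CACGTG and the GC box GGGCGG. RefSeq gave 8 such entries for 7 of the 8 genes, and no entry was available for Ptgis, which also fell.
Ptgs2 (chr1:150099781-150100030, plus strand): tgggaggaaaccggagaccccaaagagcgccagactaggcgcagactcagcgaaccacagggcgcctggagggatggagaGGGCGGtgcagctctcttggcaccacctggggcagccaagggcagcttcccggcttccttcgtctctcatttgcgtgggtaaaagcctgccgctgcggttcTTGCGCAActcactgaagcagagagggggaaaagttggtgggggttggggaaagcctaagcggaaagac
Ptges (chr2:30903298-30903547, minus strand): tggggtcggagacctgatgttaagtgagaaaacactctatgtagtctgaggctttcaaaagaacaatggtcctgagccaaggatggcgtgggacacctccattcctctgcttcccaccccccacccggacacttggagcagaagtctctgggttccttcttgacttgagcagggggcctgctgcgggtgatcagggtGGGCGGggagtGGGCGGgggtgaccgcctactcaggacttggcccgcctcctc
Ptger4 (chr15:5244188-5244437, minus strand): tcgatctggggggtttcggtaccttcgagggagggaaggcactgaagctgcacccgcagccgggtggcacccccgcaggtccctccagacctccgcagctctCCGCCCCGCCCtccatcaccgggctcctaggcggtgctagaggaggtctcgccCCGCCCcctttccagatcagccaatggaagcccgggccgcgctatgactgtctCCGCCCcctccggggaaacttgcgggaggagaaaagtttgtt
Ptgfr (chr3:151837529-151837778, minus strand): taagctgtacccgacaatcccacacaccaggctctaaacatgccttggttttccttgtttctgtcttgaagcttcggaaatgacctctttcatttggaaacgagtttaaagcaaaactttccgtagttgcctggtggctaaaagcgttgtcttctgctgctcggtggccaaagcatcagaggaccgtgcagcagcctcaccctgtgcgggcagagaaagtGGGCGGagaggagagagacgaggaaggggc
The C/EBP palindrome was found in Ptgs2, starting 69 bases before the gene start, and in no other of the 8 entries, and it is in 0.164% of the 32851 promoter windows of the same length. The GC box was found in 4 of the 8 entries, which are the 4 printed, and not in those of Ptgs1, Ptgds or Pla2g4a (2 entries), although Pla2g4a also fell. There were 4 matches in Ptger4 (the first pair overlapping by 1 base), 2 in Ptges and 1 each in Ptgs2 and Ptgfr, and the GC box is in 32.7% of all windows. The half-site and the E-box, in 6.47% and 6.02% of all windows, were found in 0 of the 8. A match describes letters only. A further motif, an NF-kappaB pattern, was searched at first, had no match in the 4 printed windows and was left out of the counts.

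The rest of the eicosanoid pathway did not move as a block. Of 58 further genes listed, 49 had a probe set of their own, and each is given by its brightest one. Of the 49, 5 fell (10.2%) and 4 rose (8.16%), against 6% and 5.33% of all 12393 genes, with a median log2 difference of 0.00. Many of them were dim, where a difference can be missed. Only 16 of the 49 were above the median level of the array, and 9 read at or below 16 on all 4 arrays. With probe sets under the 50th percentile left out, limma called 6 of the 16 lower and 6 higher, against 2232 lower and 2642 higher of 11313 probe sets. With an offset of 1, limma called 1 of the 49 lower and 2 higher, against 426 lower and 180 higher of all 22626 probe sets. The backgrounds for the filter and the offset count every probe set, while each of the 49 is read by its brightest.

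**Figure D4:**
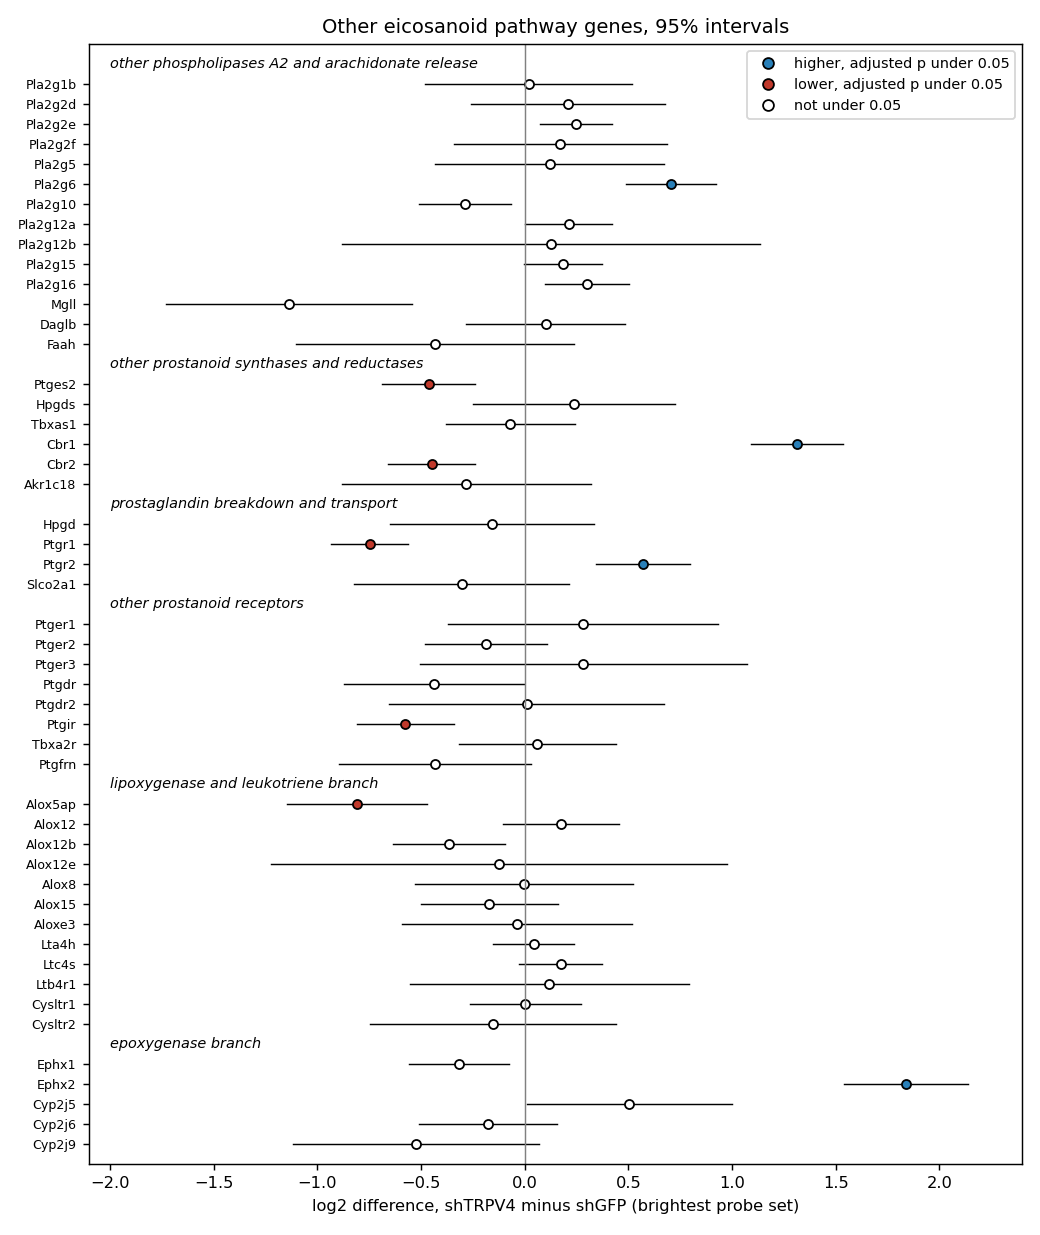
Log2 difference (shTRPV4 minus shGFP, horizontal axis) with its 95% interval for the 49 other eicosanoid pathway genes, grouped by role, blue where higher and red where lower at a limma adjusted p under 0.05. The highest are Ephx2 at 1.84 and Cbr1 at 1.31, and the lowest that passed is Alox5ap at -0.81.

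Of 14 further genes of arachidonate release, 1 rose and 0 fell. The one that rose was Pla2g6, a phospholipase A2 that does not need calcium, with 721 and 684 in the arrays labelled shTRPV4, against 436 and 443 in those labelled shGFP. Its log2 difference of 0.71 (SE 0.08, limma adjusted p = 0.0263) had the opposite sign to that of Pla2g4a, and the call was lost with an offset of 1. Mgll, the monoacylglycerol lipase, which can free arachidonic acid from an endocannabinoid, was not called on its brightest probe set, which can read several transcripts (-1.14, limma adjusted p = 0.0562). It fell on 2 of its other 3 probe sets, with -1.05 on 1450391_a_at (limma adjusted p = 0.0351) and -1.01 on 1453836_a_at (limma adjusted p = 0.0252), both lost with an offset of 1. Plaat3, the phospholipase abundant in fat cells, read 7278 and 7117 in the arrays labelled shTRPV4, against 5772 and 5545 in those labelled shGFP, and its difference of 0.30 did not pass (95% interval 0.10 to 0.50, limma adjusted p = 0.0842).

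Among 6 other synthases and reductases, 2 fell, 1 rose and 3 did not pass. Cbr1, a carbonyl reductase that can turn prostaglandin E into prostaglandin F, read 2871 and 3151 in the arrays labelled shTRPV4, against 1237 and 1189 in those labelled shGFP. The groups were far apart and the log2 difference was 1.31 (SE 0.08, limma adjusted p = 0.0155). Ptges2, another prostaglandin E synthase, read 361 and 340.2 in the arrays labelled shTRPV4, against 482 and 539.8 in those labelled shGFP (-0.46, SE 0.08, limma adjusted p = 0.0496), and this call was lost with the values as deposited, median centring and an offset of 1. Cbr2, a second carbonyl reductase, fell by 0.45 (SE 0.07, limma adjusted p = 0.0475), which was lost with median centring and an offset of 1. Hpgds, the hematopoietic prostaglandin D synthase, Tbxas1, the thromboxane synthase, and Akr1c18, an aldo-keto reductase, averaged between 5.58 and 23.0 in the arrays labelled shTRPV4, against 10.0 to 25.7 in those labelled shGFP, and did not pass (log2 differences 0.24, -0.07 and -0.28).

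The breakdown enzymes split. Ptgr1, which reduces oxidised prostaglandins, read 729.7 and 791 in the arrays labelled shTRPV4, against 1305 and 1321 in those labelled shGFP (-0.75, SE 0.07, limma adjusted p = 0.0202). Ptgr2, an enzyme with a similar activity, rose on its brightest probe set, of a type that can read several transcripts (393 and 402 in the arrays labelled shTRPV4, against 280.1 and 267 in those labelled shGFP). The log2 difference there was 0.57 (SE 0.08, limma adjusted p = 0.0371, lost with an offset of 1), and its other probe sets differed by 0.59 and 0.34 without passing (limma adjusted p = 0.10 and 0.0613). Hpgd, which starts prostaglandin inactivation, averaged 14.5 in shTRPV4 and 18.4 in shGFP, around the offset (log2 difference -0.16, limma adjusted p = 0.60). Slco2a1, a prostaglandin transporter, differed by -0.30 on its brightest probe set (95% interval -0.82 to 0.21, limma adjusted p = 0.35).

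Of 8 other receptor genes, 1 fell and 0 rose. Ptgir, the prostacyclin receptor, read 108 and 122 in the arrays labelled shTRPV4, against 179 and 202 in those labelled shGFP. The groups did not overlap, and the log2 difference was -0.57 (SE 0.08, limma adjusted p = 0.0386, lost with an offset of 1). Ptgir and the prostacyclin synthase gene Ptgis were thus both lower. Tbxa2r, the thromboxane receptor, averaged 108 in shTRPV4 and 109.7 in shGFP (0.06, 95% interval -0.32 to 0.44), and Ptger2, another receptor for prostaglandin E, averaged 41.8 in shTRPV4 and 52.7 in shGFP (-0.19, 95% interval -0.48 to 0.11). Ptger1, Ptger3, Ptgdr and Ptgdr2 averaged at most 20.9 in shTRPV4 and 14.7 in shGFP, and Ptgfrn, a binding partner of the Ptgfr receptor, averaged 20.5 in shTRPV4 and 34.5 in shGFP. None of these passed, at levels where a difference could be missed.

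The neighbouring branches that also use arachidonic acid gave 1 call each. Of 12 lipoxygenase and leukotriene genes, 1 fell: Alox5ap, the activating protein of leukotriene synthesis, with 27.05 and 29.4 in the arrays labelled shTRPV4, against 56.5 and 73.3 in those labelled shGFP (-0.81, SE 0.12, limma adjusted p = 0.0398, lost with an offset of 1). The leukotriene enzyme genes Lta4h and Ltc4s were bright and did not pass on their brightest probe sets (0.04 and 0.17). Lta4h passed on its dimmest, 1453528_at, with 7.77 and 7.01 in the arrays labelled shTRPV4, against 1.0 and 1.0 in those labelled shGFP, all below the offset of 16 (log2 difference 0.46, limma adjusted p = 0.0349). Of 5 epoxygenase branch genes, 1 rose: Ephx2, the soluble epoxide hydrolase, with 457 and 558 in the arrays labelled shTRPV4, against 133 and 141 in those labelled shGFP. Its log2 difference of 1.84 (SE 0.11, limma adjusted p = 0.0155) was the largest of the 49.

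Markers of adipocytes, preadipocytes or fibroblasts, macrophages, endothelial cells and mast cells were read on the same arrays of this preadipocyte line. Of 12 adipocyte markers 5 rose and 1 fell, against 5.33% and 6% of all 12393 genes. The 1 that fell was Lep, with 3.93 and 4.92 in the arrays labelled shTRPV4, against 68.3 and 43.9 in those labelled shGFP. Its log2 difference was -1.77 (limma adjusted p = 0.0268). The adipocyte markers had a summed deposited intensity from 69280 to 72680 in shTRPV4 and from 59380 to 59919 in shGFP. The adipocyte label was borne by Adipoq, at 13731 in shTRPV4 and 11800.1 in shGFP, which did not pass. Of 13 markers of preadipocytes or fibroblasts, limma called 7 lower and 0 higher, with a summed level from 76324 to 78111 in shTRPV4 and from 88284 to 91968 in shGFP. Most of each of these sums came from a few very bright genes that did not pass. They were Fabp4, Lpl and Adipoq for adipocytes, and Col1a2, Col3a1, Vim and Fn1 for preadipocytes or fibroblasts. Of 12 macrophage markers 3 fell, with log2 differences of -1.89 (Lyz2), -0.96 (Cd14) and -0.85 (Csf1r). The 2 that rose were Cd68 (1.49) and Cx3cr1 (1.19). The 12 had a summed level from 705 to 756 in shTRPV4 and from 998 to 1107 in shGFP. Cd14 and Lyz2, which both fell, were the brightest of the 12 in shGFP and weigh most in that sum. Ptprc, Fcgr1 and Cd163 read at or below 16 on the 4 arrays. Of 8 endothelial and 8 mast cell markers limma called 0, and their summed levels were from 127 to 136 and from 118 to 126 in shTRPV4, against 107 to 122 and 93.2 to 100.1 in shGFP. The part of these cell types in the differences of the prostaglandin genes was not tested, and in whole cultures fewer cells of a type and less RNA per cell cannot be told apart.

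The 3 genes with values most like those of Ptgs2 1417262_at over the 4 arrays, by Euclidean distance of centred log2 values, were Ndn (distance 0.09), Xpnpep2 (0.20) and Pmepa1 (0.25). Ndn read 158 and 121 in the arrays labelled shTRPV4, against 395 and 561 in those labelled shGFP, so that shGFP replicate 2 was the highest and shTRPV4 replicate 2 the lowest, as for Ptgs2. For the dim probe set 1417263_at they were Prss22 (0.06), Zyg11a (0.06) and Pth (0.07), all of which averaged at most 14.1 in shTRPV4 and 24.0 in shGFP. With 4 arrays many probe sets share such an order.

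**Figure D5:**
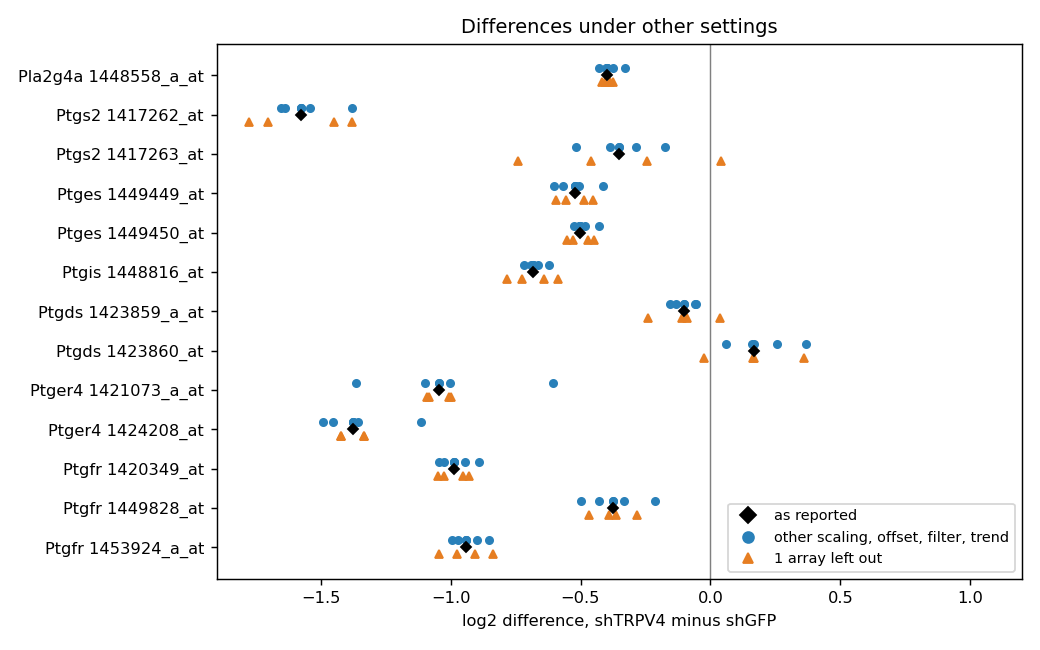
Log2 difference (shTRPV4 minus shGFP, horizontal axis) of the 13 probe sets as reported (black), under 7 other scalings, offsets, filters and an intensity trend (blue, fewer where a filter removed the probe set), and with each array left out (orange). The 9 that passed stay below 0 throughout, and Ptgs2 1417263_at and both Ptgds probe sets cross 0 when 1 array is left out.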

How the data were processed

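Per the labels, total RNA of 2 samples labelled shTRPV4 and 2 labelled shGFP was read on Affymetrix arrays. The authors deposited 1 linear intensity per probe set and array. Their summarisation, background correction and scaling were not given in the sources used here. No detection calls were used, and the number of arrays limits the precision. The 4 columns held 22626 probe sets and no control probe sets. Intensities were taken as log2(intensity + 16) and quantile normalized, since array medians spanned 0.14 on that scale. In R 4.3.3, limma 3.58.1 (lmFit, eBayes; 2 residual and 1.80 prior degrees of freedom) then fitted shTRPV4 minus shGFP over all probe sets, and differences were called at a Benjamini-Hochberg adjusted p under 0.05. The fit was also run on simulated arrays with the same spread for every probe set and changes only in brighter ones. Such a run checks the computation, and not the error rate of the calls here.

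The platform annotation gave 20380 probe sets 1 gene, 691 several and 1555 none. Gene IDs of 20351 matched RefSeq (GRCm38.p6), which changed 0 symbols. Every probe set of the listed genes is named. Other genes are given by the brightest probe set, and those named are the synthases, breakdown enzymes, transporters, receptors and any past the threshold, with others such as Mgll, Plaat3, Lta4h and Ltc4s named after their values were seen. The members and lists were chosen with earlier results of these data known. Alternatives were the scaling, an offset of 1 or 64, leaving out probe sets under the 25th or 50th percentile of level, an intensity trend, a replicate block and leaving out each array.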

Additional observations from a re-analysis of the deposited data

How the results depend on the processing

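Of the 9 prostaglandin probe sets that fell, 9 kept the call with an intensity trend, with an offset of 64 and with probe sets under the 25th percentile left out, 8 of the 8 that remained did so under the 50th percentile filter, 8 with median centring, 7 with the values as deposited and 3 with an offset of 1 (both Ptger4 probe sets and Ptgfr 1420349_at). Leaving out any 1 array, or adding the replicate number as a block, leaves 1 residual degree of freedom and gave 0 calls for the 13, for the 49 other genes and for all probe sets. Same-numbered arrays had deviations that correlated at 0.12 over probe sets, and with 2 pairs the numbers were not taken as pairing the samples. The median difference of the 13, which was -0.52, was -0.60 with the values as deposited, -0.60 and -0.81 with the 25th and 50th percentile filters (12 and 8 probe sets left), and ran from -0.59 to -0.53 with 1 array left out. With an offset of 1, the 49 other genes gave 2 higher and 1 lower. Over all probe sets, the 1027 higher and 1213 lower became 2170 and 1980 with an intensity trend, 180 and 426 with an offset of 1, 2130 and 1986 with 64, 2084 and 1975 with the 25th and 2642 and 2232 with the 50th percentile filter, 600 higher with the values as deposited and 1662 higher with median centring. Leaving out 1 array turned the sign of 4 values, none of which had passed: Trpv4 ran from -0.094 (without shGFP replicate 1) to 0.74, Ptgs2 1417263_at from -0.74 to 0.040 (without shGFP replicate 2), Ptgds 1423859_a_at from -0.24 to 0.038 (without shGFP replicate 1), and Ptgds 1423860_at from -0.027 (without shTRPV4 replicate 1) to 0.36. Why these values moved was not tested, apart from the fewer arrays or probe sets in a fit. Without detection calls, a difference of a probe set near the offset of 16 can be missed.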
